A study of Mus musculus with 8 samples.

Results

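The genes described here are 44 genes of DNA replication and cell division, taken from a named list of proliferation genes and matched by gene identifier and symbol, out of 27179 genes counted in thymic natural killer T (NKT) cells of the mouse. They comprise 16 replication genes, 6 regulators of entry into or passage through the cycle (Ccne1, Ccne2, E2f1, E2f2, Mybl2 and Foxm1) and 22 mitosis genes. All 44 had reads in each library, and all were among the 13794 genes that passed the filter on low counts. NKT cells are T lymphocytes that see lipid antigens held by CD1d. The study sequenced their mRNA from C57BL/6 mice, wild-type (WT) or with Ezh2 knocked out (Ezh2-KO), in 3 thymic subsets that differ in surface CD44 and NK1.1. CD44+ NK1.1- cells gave 2 libraries of each genotype. CD44- NK1.1- and CD44+ NK1.1+ cells gave 1 library of each genotype, so that there were 8 libraries in all. The labels name no treatment. The labels give no age of the animals, no deleter strain or promoter behind the knock-out, and no statement that subsets came from the same animals.

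Cells copy their DNA in S phase and divide in M phase, and each phase has its own set of transcripts. Replication genes encode the proteins that load, open and run the replication fork and that supply its nucleotides, and they are transcribed from late G1 under E2F factors. Mitosis genes encode cyclins, kinases and spindle proteins, and their transcripts build up in G2 under the B-Myb and FoxM1 factors. In the thymus NKT cells pass from CD44- NK1.1- through CD44+ NK1.1- to CD44+ NK1.1+ cells, and the earlier stages are known for their expansion while the last is mostly resting. Ezh2 is the catalytic subunit of Polycomb repressive complex 2, which methylates histone H3 and keeps target genes silent.

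The promoters of the members were read because most members moved together between subsets. A RefSeq window (build GRCm38.p6, the assembly also called mm10) of 250 bases before to 50 bases after the start was present for 36 of the 44 genes. Each was searched on both strands for an E2F motif (TTTCGCGC or TTTGGCGC), for the cell cycle homology region or CHR (TTTGAA) and for CCAAT. The E2F letters were found for 6 of 14 replication genes (42.9%), 1 of 4 regulators and 1 of 18 mitosis genes (5.56%), beside 0.929% of 27025 genes with a window. The CHR letters were found for 2 of 14 replication genes (14.3%), 1 of 4 regulators and 13 of 18 mitosis genes (72.2%), beside 20.2% of all genes. CCAAT was found for 10 of 14 replication genes (71.4%), 1 of 4 regulators and 16 of 18 mitosis genes (88.9%), beside 41.1% of all genes. These are matches of letters, a description of the windows and not of binding.

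The 4 windows printed here show how the letters lie in each class. They belong to the 2 replication and 2 mitosis genes with the smallest p between CD44+ NK1.1+ and CD44+ NK1.1- cells among those whose window holds a searched motif. Capitals mark the matches, read 5′ to 3′ along the gene's strand, and positions are counted from the start site. Cdc45 (chr16:18811923-18812222, minus strand) encodes a part of the replicative helicase. Its window held CHR letters at -240 and 11 and CCAAT, on the other strand, at -13 and -2. Orc1 (chr4:108579204-108579503, plus strand) encodes the large subunit of the origin recognition complex. Its window held an E2F match on the other strand at -27 and CCAAT at -120 and -66. Ccnb2 (chr9:70421505-70421804, minus strand) encodes cyclin B2. Its window held CHR letters at -167 and 5 and CCAAT at -87, -54 and -21. Ube2c (chr2:164769679-164769978, plus strand) encodes a ubiquitin-conjugating enzyme of the anaphase-promoting complex. Its window held CHR letters at -29 and 6 CCAAT matches, 2 of which overlap on opposite strands.
Cdc45: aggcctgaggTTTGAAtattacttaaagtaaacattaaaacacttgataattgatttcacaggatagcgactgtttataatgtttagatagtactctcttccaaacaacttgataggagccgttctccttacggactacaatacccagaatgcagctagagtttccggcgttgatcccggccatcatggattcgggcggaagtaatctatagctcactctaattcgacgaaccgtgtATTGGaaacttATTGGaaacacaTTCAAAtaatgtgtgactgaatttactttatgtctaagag
Orc1: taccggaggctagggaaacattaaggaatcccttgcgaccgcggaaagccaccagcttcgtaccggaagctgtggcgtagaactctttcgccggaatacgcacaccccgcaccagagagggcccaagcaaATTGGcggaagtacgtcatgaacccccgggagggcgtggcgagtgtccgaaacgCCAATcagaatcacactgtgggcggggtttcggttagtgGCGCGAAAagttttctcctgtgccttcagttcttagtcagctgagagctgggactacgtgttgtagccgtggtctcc
Ccnb2: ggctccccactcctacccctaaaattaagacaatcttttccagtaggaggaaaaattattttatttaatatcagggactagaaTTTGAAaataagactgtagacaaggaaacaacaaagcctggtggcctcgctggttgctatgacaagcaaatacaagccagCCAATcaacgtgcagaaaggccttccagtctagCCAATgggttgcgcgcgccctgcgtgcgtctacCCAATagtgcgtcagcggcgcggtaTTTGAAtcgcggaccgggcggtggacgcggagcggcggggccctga
Ube2c: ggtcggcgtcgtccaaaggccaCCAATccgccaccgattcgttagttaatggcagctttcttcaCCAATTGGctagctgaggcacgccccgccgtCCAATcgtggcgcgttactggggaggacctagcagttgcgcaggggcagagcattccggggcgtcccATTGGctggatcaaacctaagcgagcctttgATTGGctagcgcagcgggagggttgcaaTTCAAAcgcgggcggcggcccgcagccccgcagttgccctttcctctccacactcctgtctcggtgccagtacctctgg

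Library depth ran from 20308745 to 22995090 counts, so that 3 counts stood for 0.129 to 0.151 CPM (counts scaled to library depth), and member counts ran from 80 for Ccne2 to 22543 for Top2a. Levels below are CPM scaled by TMM, a method that sets libraries to a common scale, and can be compared between libraries but not between genes of different length. Ezh2 itself was at 109 CPM in the WT and 78.4 in the Ezh2-KO library of CD44- NK1.1- cells, at 113 and 136 in the WT and 83.3 and 77.9 in the Ezh2-KO replicates of CD44+ NK1.1- cells, and at 57.1 in the WT and 40.4 in the Ezh2-KO library of CD44+ NK1.1+ cells. The Ezh2-KO library was the lower one in each subset, but reads remained in every Ezh2-KO library. Whether the counted exons include the deleted part was not tested. Klrb1c, which encodes NK1.1, was at 1146 and 1447 CPM in CD44+ NK1.1+ cells and at 15.4 to 217 in the other 6 libraries, the highest of these being WT CD44+ NK1.1- replicate 1. T cell and NKT genes (Cd3d, Cd3e, Cd3g and Zbtb16 among 8) summed to 7529 (WT) and 7527 CPM (Ezh2-KO) in CD44+ NK1.1+ cells and to 2571 to 3611 CPM in the others. The 8 include Il2rb, at up to 3042 CPM, and Klrb1c, so that the sum is not one of T cell genes alone. Summed markers of B cells stayed at 0.899 to 4.78 CPM and those of myeloid cells at 4.09 to 13.5 CPM.

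The replicates of WT CD44+ NK1.1- cells stood apart from each other for these genes, which touches each comparison below that uses them. Replicate 1 was lower than replicate 2 for 44 of 44 members, with a median log2 ratio of -0.53 and a range from -0.98 for Ccnb1 to -0.10 for Gins2. Of 11374 genes with at least 1 CPM in these 4 libraries, 48.8% were higher in replicate 1, and the median log2 ratio was -0.01. The median was -0.46 for replication genes, -0.41 for regulators and -0.59 for mitosis genes. The ratio passed 1.5-fold for 19 of 44 members (43.2%), beside 9.80% of 11374 genes with at least 1 CPM in the 4 libraries of these cells. The Ezh2-KO replicates lay close together, with a median log2 ratio of 0.01, a range from -0.21 to 0.18 and 0 of 44 members past 1.5-fold, beside 0.739% of all genes. Other genes of the same classes, from lists that hold no member, followed the members: replicate 1 was lower for 28 of 28 other replication genes and 32 of 33 other mitosis genes. Growth arrest genes were the other way round, higher in replicate 1 for 8 of 10.

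Several measures moved with this gap. Immediate early genes, which cells switch on within minutes of stimulation or handling, summed to 2878 CPM in WT replicate 1 and to 435 to 836 CPM in the other 7 libraries. They were higher in WT replicate 1 than in replicate 2 for 9 of 12 genes and lower for 3. The 12 include Junb, at up to 1382 CPM, so that the sum leans on that gene. Thymocyte markers (Rag1, Rag2, Dntt, Ptcra, Cd8a and 5 more) were higher in WT replicate 1 than in replicate 2 for 9 of 10 genes, with sums of 132 and 83.3 CPM, and none was at 0 in WT replicate 1. Markers of NK cells and innate lymphoid cells were higher in WT replicate 1 for 6 of 7 genes, with sums of 68.0 and 27.6 CPM. The T cell and NKT genes, Klrb1c among them, were higher for 7 of 8, with sums of 3611 and 2881 CPM. Gamma-delta T cell genes were split, with 2 of 4 higher. The part of these measures in the gap was not tested. Both pairs differed beyond sampling noise, with a chi-square per degree of freedom of 44.7 for the WT and 6.39 for the Ezh2-KO pair. The libraries were counted as separate samples because the series' design text calls them biological replicates.

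**Figure D1:**
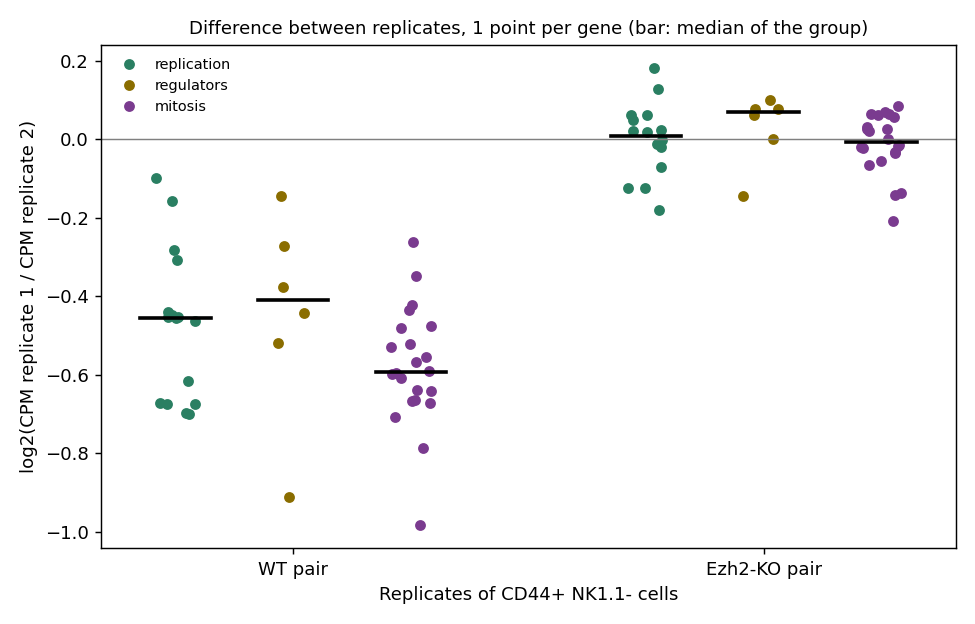
Log2 ratio of replicate 1 over replicate 2 of CD44+ NK1.1- cells for each member, WT and Ezh2-KO side by side, coloured by role. All 44 WT points lie below 0, between -0.98 and -0.10, and the Ezh2-KO points lie between -0.21 and 0.18.

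Per length of gene, Pcna was the most abundant member, at a mean of 263 RPKM (reads per kilobase of gene, scaled to depth) over the 8 libraries. Mcm6 at 202, Mcm3 at 126, Mcm5 at 121 and Top2a at 114 RPKM followed. The lowest were Ccne2 at 3.15, Orc1 at 4.06 and Cenpf at 4.98 RPKM. The clamp and the MCM helicase thus stood far above Orc1, which marks origins, and mitosis genes ran from Top2a at rank 5 to Cenpf at rank 42 of the 44.

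Summed over the 44 members, CD44- NK1.1- cells held 6172 (WT) and 6126 CPM (Ezh2-KO). CD44+ NK1.1- cells held 6026 and 8711 CPM in the WT and 7149 and 7129 CPM in the Ezh2-KO replicates, and CD44+ NK1.1+ cells held 4283 (WT) and 3670 CPM (Ezh2-KO). The CD44+ NK1.1+ libraries were the 2 lowest, while WT replicate 1 of CD44+ NK1.1- cells lay below both CD44- NK1.1- libraries and WT replicate 2 was the highest of all. The sum of mitosis genes over that of replication genes was 0.687 (WT) and 0.603 (Ezh2-KO) in CD44- NK1.1- cells, 0.925, 0.983, 0.803 and 0.806 in CD44+ NK1.1- cells, and 0.663 and 0.649 in CD44+ NK1.1+ cells. That ratio was highest in the 4 CD44+ NK1.1- libraries, WT replicate 1 included. In bulk libraries, fewer dividing cells and less of these RNAs per cell cannot be told apart.

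**Figure D2:**
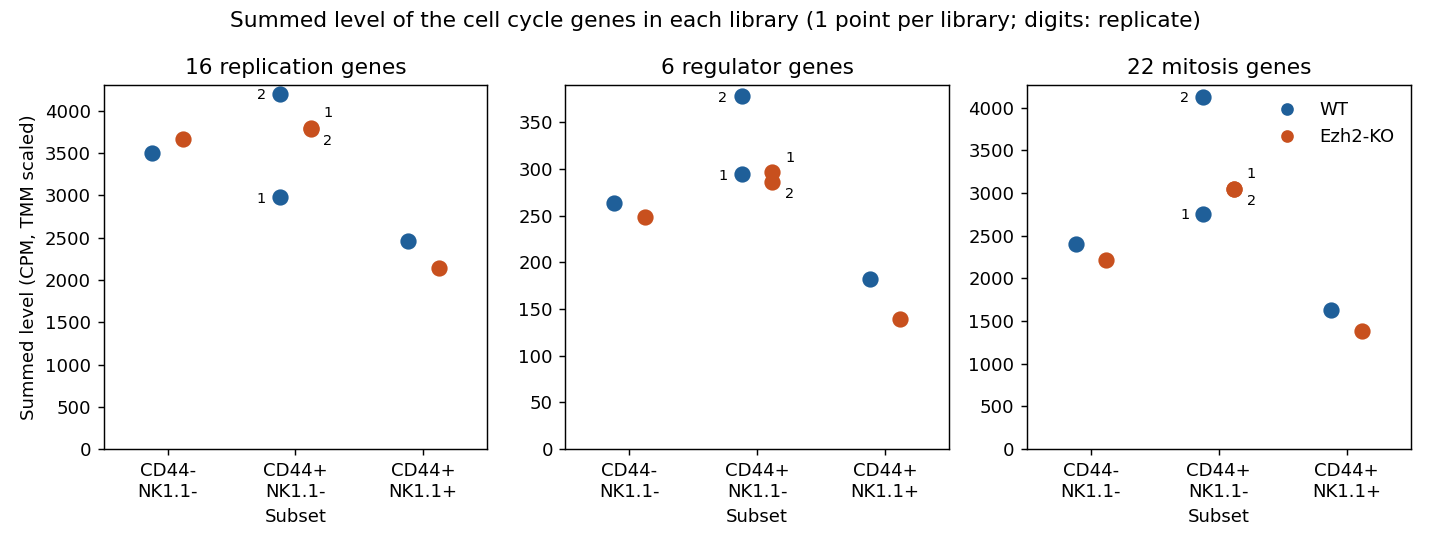
Summed CPM of the replication genes, regulators and mitosis genes in each of the 8 libraries, WT and Ezh2-KO marked apart. Mitosis genes summed to 1635 and 1390.1 CPM in CD44+ NK1.1+ cells, below all 6 other libraries (2211 to 4129.9), while the replication genes of CD44- NK1.1- cells (3502 and 3667) lay within the range of CD44+ NK1.1- cells (2978 to 4203).

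**Figure D3:**
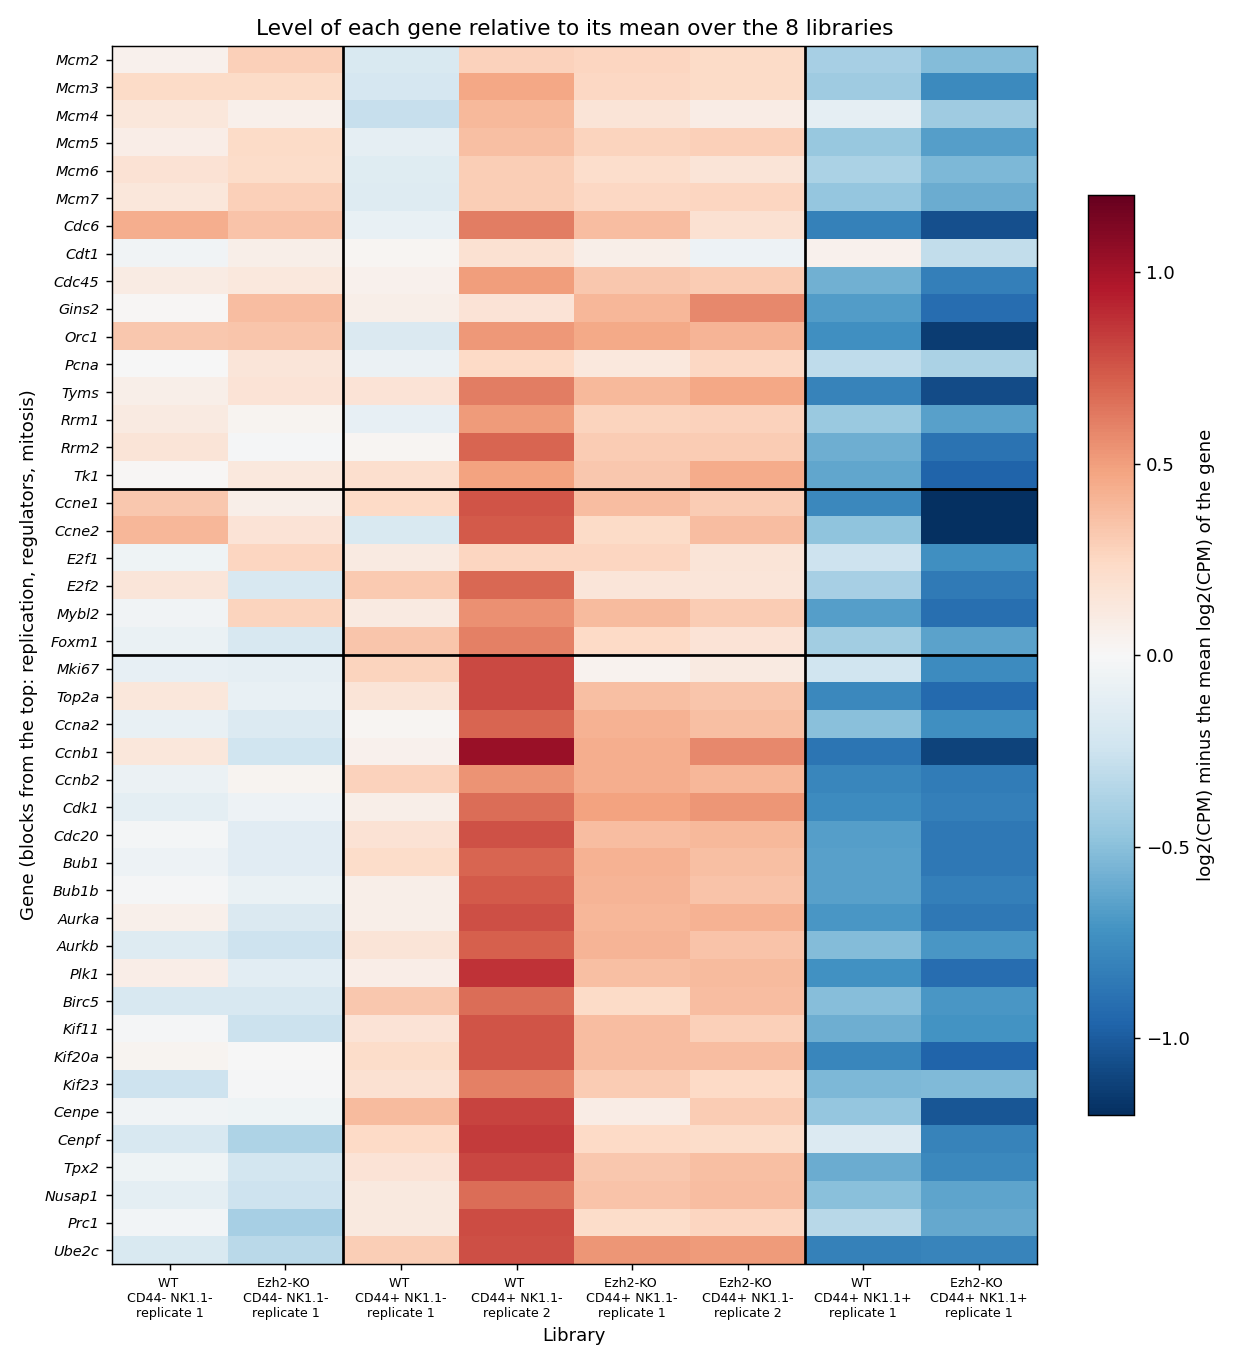
Log2 CPM of each member minus its own mean over the 8 libraries, with genes in rows grouped by role and libraries in columns grouped by subset; values past the ends of the scale take the end colour. The 2 columns of CD44+ NK1.1+ cells are the lowest for 40 of 44 genes, and WT CD44+ NK1.1- replicate 2 is the highest of its subset for 41 of 44.

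In CD44+ NK1.1+ compared with CD44+ NK1.1- cells, averaged over both genotypes, 42 of 44 members fell and 0 rose by edgeR's quasi-likelihood test (Benjamini-Hochberg adjusted p under 0.05). Of all genes tested, 16.1% were lower and 16.4% higher by the same rule, so that 50.5% of calls were higher, beside 31.8% when libraries were scaled by their size in place of TMM. Replication genes fell in 14 of 16 cases with a median log2 change of -0.80, regulators in 6 of 6 with -1.04 and mitosis genes in 22 of 22 with -1.15, beside 0.00 for all genes. As folds, replication genes were 1.13 to 2.55 times lower (median 1.74), regulators 1.62 to 2.75 times (median 2.06) and mitosis genes 1.75 to 2.95 times (median 2.22). For 40 of 44 members both CD44+ NK1.1+ libraries lay below all 6 libraries of the other subsets, a pattern that 21.1% of all genes showed. The exceptions were Mcm4, Cdt1, Cenpf and Prc1. Groups of 1 library were assumed to vary like the replicated group.

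**Figure D4:**
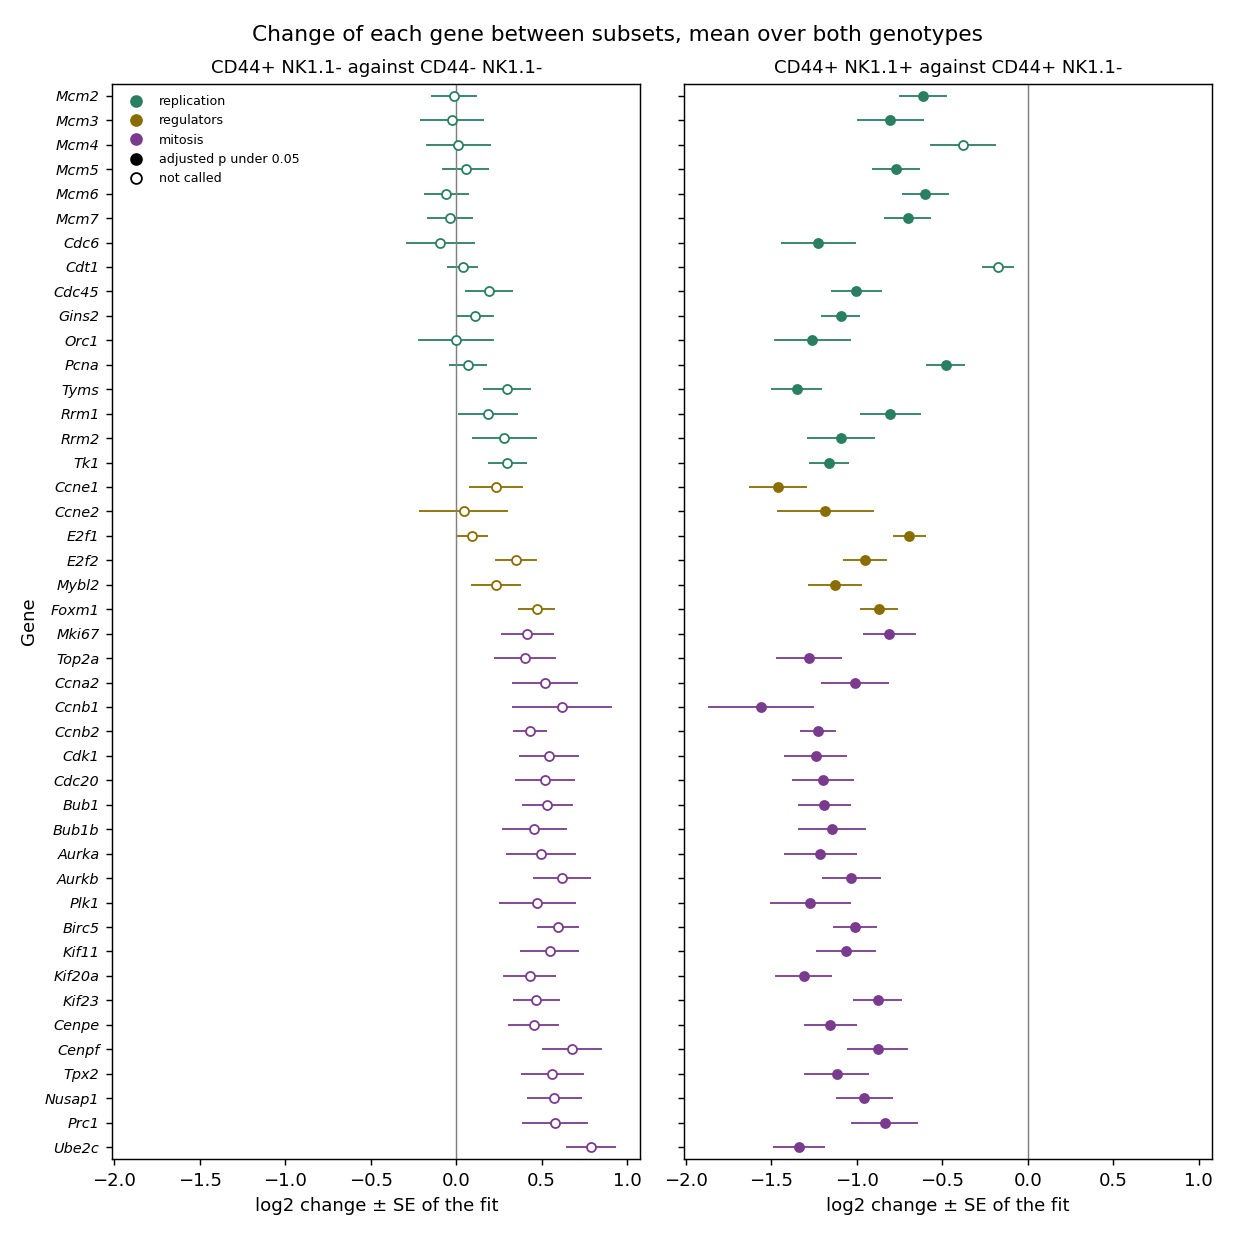
Log2 change of each member with its standard error, in CD44+ NK1.1- against CD44- NK1.1- cells (left) and in CD44+ NK1.1+ against CD44+ NK1.1- cells (right), both as means over the genotypes; filled points passed an adjusted p of 0.05. On the right 42 points are filled and lie to the left of 0, and on the left the 22 mitosis genes lie to the right of 0 with no point filled.

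The replication genes are described from the MCM helicase and the clamp to the genes of origin loading and nucleotide supply. Values follow in a fixed order: WT then Ezh2-KO in CD44- NK1.1- cells, WT replicates 1 and 2 then Ezh2-KO replicates 1 and 2 in CD44+ NK1.1- cells, and WT then Ezh2-KO in CD44+ NK1.1+ cells. Mcm5 (chr8:75109468-75128439), a subunit of the MCM helicase that unwinds DNA at the fork, was at 425 and 472 CPM in CD44- NK1.1- cells, at 374, 516, 486 and 489.8 in CD44+ NK1.1- cells, and at 293 and 255 in CD44+ NK1.1+ cells. Mcm2 (chr6:88883474-88898780), another subunit, was at 340.2 and 401 CPM in CD44- NK1.1- cells, at 290.2, 398, 393 and 387 in CD44+ NK1.1- cells, and at 249.9 and 230.2 in CD44+ NK1.1+ cells. Both CD44+ NK1.1+ libraries were the lowest, with no overlap with either other subset. Mcm5 was 1.71-fold lower in CD44+ NK1.1+ than in CD44+ NK1.1- cells (log2 -0.77 ± 0.14 SE, edgeR adjusted p 0.0107). For Mcm2 the fold was 1.53 (log2 -0.61 ± 0.14 SE, edgeR adjusted p 0.0207). Pcna (chr2:132249286-132253180), the sliding clamp that holds DNA polymerase on its template, was at 326 and 361 CPM in CD44- NK1.1- cells, at 312, 386, 358 and 389 in CD44+ NK1.1- cells, and at 266 and 252 in CD44+ NK1.1+ cells. It showed the smallest fall of the replication genes that passed, 1.39-fold (log2 -0.48 ± 0.11 SE, edgeR adjusted p 0.0232).

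Mcm4 and Cdt1, the licensing factor that brings the helicase to origins, were the members that did not pass. Mcm4 was at 284 and 269 CPM in CD44- NK1.1- cells, at 214, 340.3, 288 and 275 in CD44+ NK1.1- cells, and at 239.7 and 192 in CD44+ NK1.1+ cells, with the WT CD44+ NK1.1+ library above WT CD44+ NK1.1- replicate 1 (log2 -0.38 ± 0.19 SE, edgeR adjusted p 0.182). Cdt1 was at 89.3 and 96.9 CPM in CD44- NK1.1- cells, at 93.6, 104, 96.5 and 88.2 in CD44+ NK1.1- cells, and at 95.6 and 75.2 in CD44+ NK1.1+ cells. Its WT CD44+ NK1.1+ library lay within the range of the other subsets (log2 -0.17 ± 0.09 SE, edgeR adjusted p 0.19). A p that misses the threshold does not show that either gene was alike in the subsets.

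Cdc6, Tyms, Tk1, Rrm2 and Gins2 each fell by more than 2-fold. Cdc6 (chr11:98907709-98923942), which loads the helicase with Cdt1, was at 52.5 and 49.3 CPM in CD44- NK1.1- cells, at 36.7, 59.6, 50.3 and 44.3 in CD44+ NK1.1- cells, and at 22.2 and 18.8 in CD44+ NK1.1+ cells, and fell 2.34-fold (edgeR adjusted p 0.0115). Tyms (chr5:30038546-30073645), thymidylate synthase, was at 57.0 and 60.6 CPM in CD44- NK1.1- cells, at 60.5, 82.8, 71.0 and 74.6 in CD44+ NK1.1- cells, and at 31.1 and 25.8 in CD44+ NK1.1+ cells. Both were lowest in the CD44+ NK1.1+ libraries without overlap, and Tyms had the largest fall of the replication genes, 2.55-fold (log2 -1.35 ± 0.15 SE, edgeR adjusted p 0.00223). Tk1 (chr11:117815519-117826087), the thymidine kinase of S phase, was at 50.6 and 54.8 CPM in CD44- NK1.1- cells, at 57.9, 70.4, 62.7 and 68.3 in CD44+ NK1.1- cells, and at 32.6 and 25.7 in CD44+ NK1.1+ cells. Rrm2 (chr12:24708254-24714146), the regulated subunit of ribonucleotide reductase, was at 158 and 140.3 CPM in CD44- NK1.1- cells, at 144, 229.6, 176 and 176 in CD44+ NK1.1- cells, and at 94.3 and 76.9 in CD44+ NK1.1+ cells. Tk1 fell 2.24-fold (edgeR adjusted p 0.00182) and Rrm2 2.13-fold (edgeR adjusted p 0.0124), again with the CD44+ NK1.1+ libraries below all others. Gins2 (chr8:120581266-120589075), part of the GINS complex of the helicase, was at 25.1 and 32.0 CPM in CD44- NK1.1- cells, at 26.0, 27.8, 32.7 and 37.0 in CD44+ NK1.1- cells, and at 15.6 and 13.2 in CD44+ NK1.1+ cells and fell 2.13-fold (edgeR adjusted p 0.00187). Gins2 had the narrowest gap between the WT replicates of all members.

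All 6 regulators fell. Ccne1 (chr7:38097984-38107490), cyclin E1, which with Cdk2 starts S phase, was at 44.1 and 37.0 CPM in CD44- NK1.1- cells, at 41.6, 59.6, 45.6 and 43.7 in CD44+ NK1.1- cells, and at 20.6 and 14.5 in CD44+ NK1.1+ cells. It had the largest fall of the regulators, 2.75-fold (log2 -1.46 ± 0.17 SE, edgeR adjusted p 0.0026). E2f1 (chr2:154559400-154569892), an activating E2F factor, was at 41.1 and 51.1 CPM in CD44- NK1.1- cells, at 46.1, 50.9, 51.1 and 47.6 in CD44+ NK1.1- cells, and at 35.8 and 25.6 in CD44+ NK1.1+ cells and fell 1.62-fold (edgeR adjusted p 0.00483), the smallest change among regulators. E2f2 (chr4:136172274-136196057), a related factor, was at 84.5 and 66.8 CPM in CD44- NK1.1- cells, at 94.8, 123, 84.5 and 84.4 in CD44+ NK1.1- cells, and at 58.1 and 42.3 in CD44+ NK1.1+ cells and fell 1.93-fold (edgeR adjusted p 0.00402). For each of these genes the CD44+ NK1.1+ libraries were the 2 lowest of the 8. Foxm1 (chr6:128362994-128375886), the factor that drives mitosis genes in G2, was at 59.4 and 55.0 CPM in CD44- NK1.1- cells, at 78.8, 95.1, 74.1 and 70.1 in CD44+ NK1.1- cells, and at 46.8 and 40.1 in CD44+ NK1.1+ cells and fell 1.83-fold (edgeR adjusted p 0.00354). Mybl2 (chr2:163054327-163084688), which encodes B-Myb, was at 22.3 and 27.7 CPM in CD44- NK1.1- cells, at 24.7, 33.6, 30.0 and 28.4 in CD44+ NK1.1- cells, and at 14.5 and 12.3 in CD44+ NK1.1+ cells. Mybl2 and Ccne2, cyclin E2, had log2 changes of -1.13 and -1.18, again with the CD44+ NK1.1+ libraries lowest.

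The mitosis genes fell by 1.75-fold or more. Mki67 (chr7:135689784-135716450), which encodes the Ki-67 protein of dividing cells, was at 334 and 331 CPM in CD44- NK1.1- cells, at 429.7, 617, 368 and 385 in CD44+ NK1.1- cells, and at 303 and 212 in CD44+ NK1.1+ cells. Its fall was the smallest of the class, 1.75-fold (log2 -0.81 ± 0.16 SE, edgeR adjusted p 0.0135), and the WT CD44+ NK1.1+ library at 303 CPM was nearer to CD44- NK1.1- cells than the Ezh2-KO one. Top2a (chr11:98992947-99024199), the topoisomerase that untangles sister chromatids, was at 615 and 526 CPM in CD44- NK1.1- cells, at 621, 969, 717 and 703 in CD44+ NK1.1- cells, and at 328 and 293 in CD44+ NK1.1+ cells and fell 2.42-fold (edgeR adjusted p 0.00681). WT CD44+ NK1.1- replicate 2 was the highest library for both genes.

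The kinases and cyclins of mitotic entry moved in the same direction. Cdk1 (chr10:69335146-69352912), the kinase that starts mitosis, was at 88.4 and 92.4 CPM in CD44- NK1.1- cells, at 101, 153, 134 and 139 in CD44+ NK1.1- cells, and at 57.1 and 54.3 in CD44+ NK1.1+ cells and fell 2.36-fold (edgeR adjusted p 0.00637). Ccnb1 (chr13:100778739-100786486), cyclin B1, the partner of Cdk1, was at 39.3 and 30.3 CPM in CD44- NK1.1- cells, at 37.0, 73.3, 48.5 and 53.3 in CD44+ NK1.1- cells, and at 19.5 and 16.6 in CD44+ NK1.1+ cells. It had both the largest fall of the 44 members, 2.95-fold (log2 -1.56 ± 0.31 SE), and the widest error, and its edgeR adjusted p was 0.0205. Ccnb2, whose promoter is shown above, was at 84.6 and 90.9 CPM in CD44- NK1.1- cells, at 107, 129, 119.7 and 117 in CD44+ NK1.1- cells, and at 51.4 and 49.7 in CD44+ NK1.1+ cells. Its replicates lay closer together, and it had the smallest p of all members (2.34-fold lower, log2 -1.23 ± 0.11 SE, edgeR adjusted p 0.00109). Plk1 (chr7:122159435-122169884), polo-like kinase 1, was at 77.9 and 67.5 CPM in CD44- NK1.1- cells, at 78.1, 135, 94.9 and 95.9 in CD44+ NK1.1- cells, and at 44.5 and 39.2 in CD44+ NK1.1+ cells and fell 2.41-fold (edgeR adjusted p 0.0139).

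Genes of chromosome segregation and mitotic exit followed. Birc5 (chr11:117849237-117855743), survivin, a part of the chromosomal passenger complex, was at 60.5 and 60.7 CPM in CD44- NK1.1- cells, at 86.5, 110.1, 81.2 and 89.7 in CD44+ NK1.1- cells, and at 48.6 and 42.7 in CD44+ NK1.1+ cells and fell 2.01-fold (edgeR adjusted p 0.00348). Ube2c was at 67.0 and 60.5 CPM in CD44- NK1.1- cells, at 93.0, 129.8, 109.8 and 108 in CD44+ NK1.1- cells, and at 43.3 and 43.7 in CD44+ NK1.1+ cells and fell 2.53-fold (edgeR adjusted p 0.00248). Both genes were lowest in the CD44+ NK1.1+ libraries and next lowest in CD44- NK1.1- cells. The other 14 mitosis genes, among them the kinesins Kif11, Kif20a and Kif23, the checkpoint kinases Bub1 and Bub1b and the Aurora kinases, fell by 1.79 to 2.48 times.

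The direction of these changes held throughout, and the calls rested in part on single libraries. All 44 members were negative in the WT libraries alone and in the Ezh2-KO libraries alone. In WT alone 17 members were called lower (4.58% of all genes), with medians of -0.64, -0.90 and -1.11 for replication genes, regulators and mitosis genes. In Ezh2-KO alone 33 were (9.2% of all genes), with medians of -0.97, -1.12 and -1.21. Without the Ezh2-KO CD44+ NK1.1+ library 18 of 44 were called lower (4.67% of all genes). Birc5, Bub1, Ccnb2, Ccne1, Cdc20, Cdk1, Cenpe, E2f2, Foxm1, Gins2, Kif20a, Kif23, Mybl2, Tk1, Top2a, Tyms and Ube2c, 17 genes, were called under each alternative run. Pcna, Tyms, Ccnb1 and Ccnb2 have named pseudogenes in RefSeq, and how reads that match more than 1 place were counted is not given in the sources used here.

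Markers of other cells moved with the same contrast. Markers of NK cells and innate lymphoid cells summed to 465 (WT) and 781 CPM (Ezh2-KO) in CD44+ NK1.1+ cells, to 27.6 to 103 CPM in CD44+ NK1.1- and to 28.1 and 80.3 CPM in CD44- NK1.1- cells. Of the 7 genes of that list 3 were called higher in CD44+ NK1.1+ cells, and Gzma, which encodes granzyme A and is also made by NKT cells, made up 338 and 501 CPM of the sums. Ncr1, a defining receptor of NK cells, had 98 and 135 reads in the CD44+ NK1.1+ libraries and 0 to 5 in the others. Their part in the falls was not tested.

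Genes outside the members showed the same contrast in replication and mitosis, while growth arrest genes were mixed. From a list of other replication genes 22 of 28 were called lower in CD44+ NK1.1+ than in CD44+ NK1.1- cells and 0 higher. Examples were Cdc7 (log2 -1.08) and its partner Dbf4 (-0.76), the kinase that fires origins, Dut (-1.02), which clears dUTP, and Chaf1b (-0.84), a histone chaperone. From a list of other mitosis genes 31 of 33 were called lower and 0 higher, among them Cdca3 (-1.19), the centromere histone Cenpa (-1.08) and the Cdk subunits Cks1b (-1.25) and Cks2 (-1.14). Of 10 growth arrest genes 4 were called higher and 0 lower: Btg2 (0.99), Klf2 (0.77), Foxo3 (0.76) and Ccng2 (0.28). Of the 6 that were not called, Btg1 (0.71) and Klf6 (0.73) had a positive change and Tob1 (-0.07), Foxo1 (-0.08), Gadd45a (-0.07) and Gadd45b (-1.04 ± 1.32 SE) a negative one.

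The G1 control genes were split. Of 20 genes 3 were called higher and 7 lower. Ccnd3 (chr17:47505051-47599689), cyclin D3, was at 170.0 and 130.3 CPM in CD44- NK1.1- cells, at 177, 175, 137 and 129 in CD44+ NK1.1- cells, and at 383 and 332 in CD44+ NK1.1+ cells. Its CD44+ NK1.1+ libraries were the 2 highest, 2.33 times the other subset (log2 1.22 ± 0.08 SE, edgeR adjusted p 0.000559). Ccnd2, cyclin D2, was also higher (log2 0.81). Cdk2 (-0.94), the partner of cyclin E, and Rb1 (-0.72) were lower. Ccnd2 and Ccnd3 thus rose in the cells in which Ccne1, Ccne2 and Cdk2 fell.

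Between CD44+ NK1.1- and CD44- NK1.1- cells the mitosis genes were set apart from the replication genes in level, although no member passed edgeR's test. The change was positive for 22 of 22 mitosis genes, with a median log2 change of 0.53 and a range from 0.40 to 0.79. Regulators were positive for 6 of 6 (median 0.23) and replication genes for 11 of 16 (median 0.05), beside 0.00 for all genes. Both CD44- NK1.1- libraries lay below all 4 CD44+ NK1.1- libraries for 21 of 22 mitosis genes, for 1 of 16 replication genes (Tk1) and for 1 of 6 regulators (Foxm1), beside 11.4% of all genes. Ccnb1 was the mitosis gene that overlapped: WT replicate 1 at 37.0 CPM lay below the WT CD44- NK1.1- library at 39.3.

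Ube2c came nearest to the threshold, with 67.0 and 60.5 CPM in CD44- NK1.1- and 93.0 to 129.8 CPM in CD44+ NK1.1- cells (log2 0.79 ± 0.15 SE, edgeR adjusted p 0.0561). Birc5 followed, with 60.5 and 60.7 against 81.2 to 110.1 CPM (log2 0.60 ± 0.12 SE, edgeR adjusted p 0.0767), then Foxm1 (log2 0.47 ± 0.11 SE, edgeR adjusted p 0.101) and Ccnb2 (log2 0.43 ± 0.10 SE, edgeR adjusted p 0.104). For these the subsets did not overlap. Tyms, Rrm2 and Mybl2 had log2 changes of 0.30, 0.28 and 0.23, with overlapping libraries. By contrast Mcm2 (-0.01), Mcm6 (-0.06) and Cdc6 (-0.09) were below 0.

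At an unadjusted p under 0.05 there were 20 of 44 members, 17 of them mitosis genes. The share of all genes at that unadjusted threshold is not given here, so these counts cannot be set against it. DESeq2 called 9 members, all higher (2.48% of all genes), and limma-voom 0. Without a filter on low counts edgeR called 2, and the share of all genes in that run is not given here. Of all genes tested edgeR called 1.59% higher and 1.07% lower. Without WT CD44+ NK1.1- replicate 1 edgeR called 33 members higher (12.5% of all genes). Without replicate 2 it called 26 higher (16.3%) and 5 lower (15.6%). In both of these fits the spread came from the Ezh2-KO pair alone. From the list of other mitosis genes 4 of 33 were called higher with all libraries, Cdc25b (log2 0.73, edgeR adjusted p 0.024), Cdca3 (0.62), Racgap1 (0.61) and Cenpa (0.52), and from other replication genes 0 of 28, with 1 at an unadjusted p under 0.05.

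Set against CD44- NK1.1- cells, CD44+ NK1.1+ cells were lower for 24 of 44 members, 12 of 16 replication genes, 5 of 6 regulators and 7 of 22 mitosis genes, and higher for 0. Of all genes tested 16.2% were lower and 16% higher, 49.7% of calls being higher, beside 33.2% with scaling by library size. The medians were -0.77, -0.75 and -0.60 on the log2 scale, so that mitosis genes, which had the largest change against CD44+ NK1.1- cells, had the smallest here. Each group compared here was 1 library. The errors and p-values therefore rest on the spread of the CD44+ NK1.1- replicates, which are not part of the comparison. Gins2 (log2 -0.98 ± 0.13 SE, edgeR adjusted p 0.00311), Tyms (-1.05 ± 0.16 SE, 0.00596) and Tk1 (-0.86 ± 0.13 SE, 0.00553) led the replication genes. Ccne1 (-1.22 ± 0.19 SE, 0.00549), E2f1 (-0.60 ± 0.11 SE, 0.0106) and Mybl2 (-0.89 ± 0.17 SE, 0.0124) led the regulators. Ccnb2 (-0.80 ± 0.12 SE, 0.00469), Kif20a (-0.88 ± 0.18 SE, 0.0158) and Cenpe (-0.70 ± 0.17 SE, 0.0257) led the mitosis genes. Kif20a, a kinesin of cell cleavage, was at 67.8 and 65.9 CPM in CD44- NK1.1- cells, at 77.5, 112, 85.6 and 85.5 in CD44+ NK1.1- cells, and at 38.6 and 34.1 in CD44+ NK1.1+ cells, so that the subsets did not overlap.

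This count depended on each of the 8 libraries. Without the Ezh2-KO CD44+ NK1.1+ or the Ezh2-KO CD44- NK1.1- library 2 members were called lower (6.93% and 6.81% of all genes). Without the WT library of either subset 13 were (7.36% and 7.19%). Without Ezh2-KO CD44+ NK1.1- replicate 1 or 2 there were 11 (7.41% and 7.48%), and without WT replicate 1 or 2 there were 43 (31.8% and 31.7%). Ccnb2 and Ccne1 were called under each alternative run. Leaving out a CD44+ NK1.1- replicate took away part of the spread used here and none of the libraries compared. The comparisons of CD44+ NK1.1+ cells with the other subsets share the CD44+ NK1.1+ libraries.

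The knock-out was compared with WT in CD44+ NK1.1- cells, where both genotypes had replicates. No member was called, 0 of 44 by edgeR, DESeq2 or limma-voom, beside 4.94% of all genes called by edgeR. By edgeR 4 members had an unadjusted p under 0.05, a threshold for which the share of all genes is not given here. The median log2 change was 0.05 for replication genes, -0.11 for regulators and -0.13 for mitosis genes, beside -0.01 for all genes. The genotypes overlapped for 39 of 44 members. Both Ezh2-KO libraries lay above both WT libraries for Gins2 and below them for 2 regulators and 2 mitosis genes, 5 of 44 where 52.2% of all genes did not overlap. For most members the WT replicates formed the outer pair, WT replicate 2 being the highest of the 4 libraries for 41 of 44 and WT replicate 1 the lowest for 37 of 44. The share of all genes in either order is not given here.

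Gins2, Mki67, E2f2 and Cenpe were the 4 members with an unadjusted p under 0.05. Gins2 was at 26.0 and 27.8 CPM in the WT and 32.7 and 37.0 in the Ezh2-KO replicates (log2 0.37 ± 0.12 SE, edgeR adjusted p 0.163). Mki67 was at 429.7 and 617 CPM in WT and 368 and 385 in Ezh2-KO (log2 -0.48 ± 0.18 SE, edgeR adjusted p 0.203). E2f2 was at 94.8 and 123 CPM in WT and 84.5 and 84.4 in Ezh2-KO (log2 -0.37 ± 0.14 SE, edgeR adjusted p 0.21). In each the 2 genotypes were separate, but the gap between the WT replicates of Mki67 and E2f2 was wider than that between the genotypes' nearest libraries. Cenpe, a kinesin of the kinetochore, was at 44.4 and 44.1 CPM in CD44- NK1.1- cells and at 59.5, 80.4, 48.7 and 56.3 in CD44+ NK1.1- cells. In CD44+ NK1.1+ cells it was at 33.1 and 22.4 CPM. Its knock-out change in CD44+ NK1.1- cells was log2 -0.41 ± 0.17 SE (edgeR adjusted p 0.235). Cenpf, another kinetochore protein, was at 46.2 and 40.7 CPM in CD44- NK1.1- cells, at 62.1, 93.9, 62.1 and 61.2 in CD44+ NK1.1- cells, and at 47.1 and 30.3 in CD44+ NK1.1+ cells, with WT replicate 1 level with the Ezh2-KO replicates (log2 -0.34 ± 0.20 SE, edgeR adjusted p 0.401). Mcm7, a helicase subunit, was at 229 and 254 CPM in CD44- NK1.1- cells, at 188, 256, 247 and 249 in CD44+ NK1.1- cells, and at 151 and 138 in CD44+ NK1.1+ cells, and both Ezh2-KO replicates lay between the WT replicates (log2 0.16 ± 0.15 SE, edgeR adjusted p 0.622).

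Which WT replicate was kept set the direction. Without WT replicate 1 the members were mostly lower in Ezh2-KO cells, 29 lower (13.6% of all genes) and 1 higher (13.8%), with a median log2 change of -0.33. By role these were 5 of 16 replication genes, 4 of 6 regulators and 20 of 22 mitosis genes lower, and Gins2 higher. Without WT replicate 2 they were mostly higher, 27 higher (21% of all genes) and 1 lower (21%), with a median of 0.24. These were 14 replication genes, 2 regulators and 11 mitosis genes higher, and Mki67 lower. Ccnb1 had a log2 change of -0.52 (edgeR adjusted p 2.32e-09) without replicate 1 and of 0.46 (edgeR adjusted p 1.72e-06) without replicate 2, and Mcm3 -0.23 (edgeR adjusted p 0.015) and 0.44 (edgeR adjusted p 2.63e-07). Mki67 stayed lower, at -0.71 and -0.19, and Gins2 higher, at 0.33 and 0.42. In these fits the Ezh2-KO pair alone set the spread, and the lone WT library was assumed to vary like it.

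**Figure D5:**
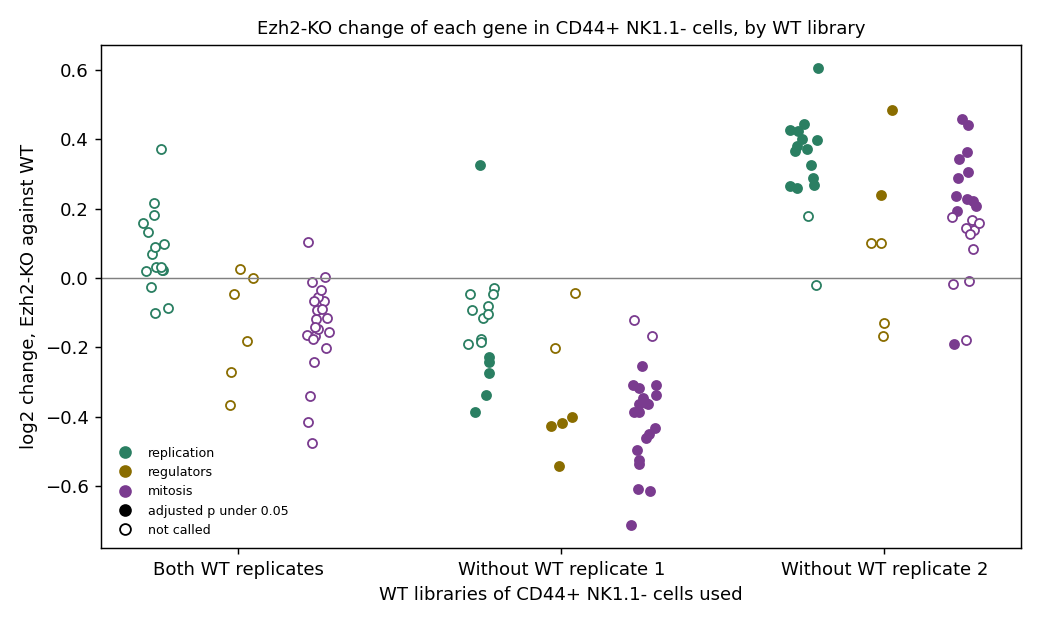
Log2 change of each member in Ezh2-KO against WT CD44+ NK1.1- cells with both WT replicates, without WT replicate 1 and without WT replicate 2. The medians are -0.06, -0.33 and 0.24, and 43 members are negative without replicate 1 against 7 without replicate 2.

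Over the 3 subsets together, in a model that takes subset and genotype as added effects, 1 member passed. E2f2 was at 84.5 and 66.8 CPM in CD44- NK1.1- cells, at 94.8, 123, 84.5 and 84.4 in CD44+ NK1.1- cells, and at 58.1 and 42.3 in CD44+ NK1.1+ cells, and was lower in Ezh2-KO cells (log2 -0.38 ± 0.08 SE, edgeR adjusted p 0.0264). The Ezh2-KO library was the lower one in each subset. Of all genes tested 4.89% were lower and 6.43% higher, 56.8% of calls being higher, beside 68.1% with scaling by library size. E2f2, Foxm1, Mki67 and Cenpe had Ezh2-KO libraries below the WT libraries of their subset in all 3 subsets, 4 of 44 members beside 14.5% of all genes. Foxm1 (log2 -0.22 ± 0.08 SE, edgeR adjusted p 0.104), Mki67 (-0.37 ± 0.13 SE, 0.117), Cenpe (-0.35 ± 0.13 SE, 0.122) and Cenpf (-0.37 ± 0.13 SE, 0.123) did not pass. Without WT CD44+ NK1.1- replicate 1 there were 23 members lower (11.1% of all genes), and without any 1 of the other 7 libraries 0, so that E2f2 lost its call in those 7.

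Of the replication genes Gins2 had the smallest p in that model (log2 0.22 ± 0.12 SE, edgeR adjusted p 0.273), with Cdt1 (-0.11) and Rrm2 (-0.16) next. Ccne1 came next after Foxm1 among the regulators (-0.27). Among G1 control genes 1 was called higher, Cdk4 (log2 0.22, edgeR adjusted p 0.0281), the kinase partner of D cyclins. The 2 lower ones were Ccnd3 (-0.35, 0.00994) and Lin54 (-0.38, 0.0251), the subunit of the DREAM and B-Myb complexes that contacts CHR letters. Of 10 growth arrest genes Btg2 was lower (-0.61, 0.0287) and 0 were higher. Beside these, globin and other red cell genes summed to 0.540 to 59.5 CPM in Ezh2-KO and 1.03 to 1.68 CPM in WT libraries, and gamma-delta T cell genes to 1026 to 1369 CPM in Ezh2-KO and 559 to 1045 CPM in WT libraries. Their part in the genotype values was not tested.

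In subsets with 1 library of each genotype there was no test, and members past 1.5-fold were counted. In CD44+ NK1.1+ cells 42 of 44 members were lower in the Ezh2-KO library, with a median log2 change of -0.21, beside -0.01 for all genes. The share of all genes that were lower is not given here. Past 1.5-fold were Ccne2, at 6.75 (WT) and 4.02 CPM (Ezh2-KO), and Cenpf, at 47.1 and 30.3 CPM, 2 of 44 beside 7.1% of all genes lower. In CD44- NK1.1- cells the median was -0.07, beside 0.00 for all genes. There 0 of 44 passed 1.5-fold, beside 16.8% of all genes in either direction. Globin and other red cell genes had their highest sum, 59.5 CPM, in the Ezh2-KO library of CD44+ NK1.1+ cells. Their part in the values of that library was not tested.

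Whether the knock-out effect differed between subsets was tested with the difference of the effects. For CD44+ NK1.1+ minus CD44+ NK1.1- cells 0 of 44 members were called, beside 0% of all genes. An unadjusted p under 0.05 was seen for 2 members, with no share of all genes given for it. For CD44- NK1.1- minus CD44+ NK1.1- cells 0 of 44 were called, beside 0.0217% of all genes, and the smallest adjusted p was 0.992 by edgeR. These counts too turned on the WT replicates. Without WT replicate 2 the first difference was negative for 36 called members (8.69% of all genes) and without replicate 1 for 2 (2.35%). Without replicate 2 the second was negative for 21 (11.4%), and without replicate 1 it was positive for 5 (1.38%). With all libraries, the fall of the members into CD44+ NK1.1+ cells was thus not shown to differ between WT and Ezh2-KO cells, which does not show that it was alike.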

How the data were processed

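RNA-seq read counts of 8 libraries in 6 groups were used. The deposited values are raw counts per gene made by the authors. Per the submitters' processing notes, CASAVA, Subread 1.4.3-p1 and featureCounts were used with build mm10. For the annotation, the strand setting and reads with several matches, the choice is not given in the sources used here. The 8 tables of single libraries were identical to the series table. The depth was 20308745 to 22995090 counts. Over genes with at least 20 summed counts both pairs differed by more than counting error, with a chi-square per degree of freedom of 44.7 (WT) and 6.39 (Ezh2-KO). Whether this holds for single members of the Ezh2-KO pair, with log2 ratios from -0.21 to 0.18, was not tested. Positions, promoters and symbols (25275 of 27179 genes matched) are from RefSeq, build GRCm38.p6.

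Tests ran in R 4.3.3 with edgeR 4.0.16. Counts passed filterByExpr with the 6 groups, were scaled by TMM, fitted across all 13794 genes with glmQLFit (robust=TRUE) and tested with glmQLFTest, with Benjamini-Hochberg adjustment within a comparison and calls at an adjusted p under 0.05. A model of 6 groups (2 residual degrees of freedom) gave the comparisons between subsets, as means over genotypes, the knock-out effect in CD44+ NK1.1- cells and the differences of that effect. A model with subset and genotype as added effects (4 residual degrees of freedom) gave the effect over 3 subsets. Log2 changes are the fitted ones. Scripts were tested on simulated data. Labels call the CD44+ NK1.1- libraries replicates, and p-values measure the spread between them.

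Named genes are any members, with per-library values for a fixed choice of 14 and for the 3 of each role with the smallest p in a comparison, Ezh2, and up to 4 genes with the smallest p of each other list. Those lists were other replication, other mitosis, G1 control, growth arrest and immediate early genes and markers of NKT cells, thymocytes, B, myeloid, red, NK or innate lymphoid and gamma-delta T cells; 3 marker symbols (Hbb-bt, Tcrg-C1 and Tcrg-C2) had no match. Members and lists were chosen with earlier results of these data known. Alternatives were DESeq2 1.42.0, limma-voom (limma 3.58.1), other scaling, no filter or at least 1 CPM in 2 libraries, robust=FALSE, each library left out in turn, single genotypes, the 4 CD44+ NK1.1- libraries alone, the mean of the 3 genotype effects and, without a test, plain ratios of CPM.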

Additional observations from a re-analysis of the deposited data

How the results depend on the processing

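No called member changed direction under the alternatives run, while the uncalled knock-out changes in CD44+ NK1.1- cells did with the WT replicate left out. The counts that follow are of members only. Where the share of all genes for a run is not printed above, its count cannot be set against all genes. Between CD44+ NK1.1- and CD44- NK1.1- cells 0 members were called, 2 without a filter on low counts and 9 with DESeq2. For the knock-out over 3 subsets the count of 1 became 2 with DESeq2 and 0 as the mean of the 3 effects. For CD44+ NK1.1+ against CD44+ NK1.1- cells 42 became 17 in WT alone, and against CD44- NK1.1- cells 24 became 2 in WT alone and 13 in Ezh2-KO alone. Leaving out 1 library at a time gave 18 to 44 and 2 to 43 members for these 2 comparisons, 0 to 33 for CD44+ NK1.1- against CD44- NK1.1- cells, 0 to 30 for the knock-out in CD44+ NK1.1- cells and 0 to 23 over 3 subsets. For the differences of the knock-out effect it gave 0 to 36 (CD44+ NK1.1+) and 0 to 21 (CD44- NK1.1-). Leaving out a CD44+ NK1.1- replicate leaves 1 residual degree of freedom, from the pair of the other genotype, in the 6-group model. Leaving out a CD44+ NK1.1+ or CD44- NK1.1- library turns the subset comparisons that use it into comparisons within a single genotype. Other causes were not tested. Scaling by library size moved the median log2 change of all genes by -0.13 and -0.14 in the comparisons of CD44+ NK1.1+ cells. No paired analysis was possible because the labels number libraries through the series and give the groups no shared replicate numbers. All members were above the 3-count floor, the lowest at 80 counts.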
